A study of Mus musculus with 9 samples.

Results

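The peaks described here are UBTF peaks whose summit lies on a long run of the 2-base unit AG, read as CT on the opposite strand. They were chosen by the score in the deposited peak lists and by the sequence of the mouse genome build mm9. In each of 6 lists the best 20000 peaks outside the ribosomal RNA gene (rDNA) sequence were taken, and the 201 bp centred on each summit were searched for tandem repeats of units of up to 6 bp. A peak was a member where the longest repeat in that window was a perfect array of the AG unit of at least 40 bp. Of the 120000 peaks taken, 37086 were members, and they fell on 15987 distinct AG arrays of the 66802 such arrays of at least 40 bp in mm9. Within a list each member peak had an array of its own.

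The cells were pre-B cells of C57BL/6 mice at 3 stages, sorted as B220-high, IgM-low and IgD-low by the labels. For malignant cells the study's methods instead give a B220-positive, IgM-negative and IgD-negative gate, so the gates may differ between stages. Bone marrow was the source throughout. Wild type cells came from mice of 4 to 6 weeks without the transgene, premalignant cells from Eµ-Myc mice of the same age, and malignant cells from Eµ-Myc mice of 10 to 20 weeks that had developed lymphoma. The Eµ-Myc transgene, carried here on 1 allele, puts the oncogene Myc under an immunoglobulin heavy chain enhancer and is therefore active in B-lineage cells from an early stage. Chromatin was precipitated with an in-house rabbit serum against UBTF1 and UBTF2, and each stage has 2 libraries, described by the study as biological replicates. Peak lists hold no expression values, so the labelled cell type could not be checked against marker genes. The 3 input samples were not analysed here, and no input background can be set beside the values below.

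UBTF is an architectural protein with several HMG boxes that covers the active rDNA repeats and bends them for transcription by RNA polymerase I. An AG/CT array places only purines on one strand and only pyrimidines on the other. Such mirror-symmetric tracts can fold into triplex (H-DNA) structures in supercoiled DNA in the test tube, and they are among the most frequent microsatellites of rodent genomes. Short reads from long tandem repeats are difficult to place, so a pile of reads over an array can depend on how they were mapped.

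The sequences below are those on which the description turns, read on the strand that carries the purines, with the AG array in capitals and its flanks in lower case. The first 3 were members in all 6 lists and show an array that is interrupted by a C or AC and then starts again. The next holds 2 arrays of 1 locus, of which the first was a member only in the malignant lists and the second only in the wild type lists. The one after it was a member only in the premalignant lists, and the last holds the longest AG array of mm9.
Qpct intron (chr17:79487438-79487600, minus strand): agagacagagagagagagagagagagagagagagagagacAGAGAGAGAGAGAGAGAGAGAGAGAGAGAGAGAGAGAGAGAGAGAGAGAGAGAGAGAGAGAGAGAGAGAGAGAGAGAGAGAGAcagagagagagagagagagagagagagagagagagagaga
chromosome 2, intergenic (chr2:107966273-107966401, minus strand): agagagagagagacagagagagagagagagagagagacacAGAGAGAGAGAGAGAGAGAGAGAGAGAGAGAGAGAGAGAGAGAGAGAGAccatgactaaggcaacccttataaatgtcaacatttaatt
Faim3 intron (chr1:132775438-132775575, plus strand): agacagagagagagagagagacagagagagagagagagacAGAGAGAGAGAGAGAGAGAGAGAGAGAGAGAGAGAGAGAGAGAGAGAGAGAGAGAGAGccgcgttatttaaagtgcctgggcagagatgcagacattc
chromosome 16, intergenic (chr16:39184885-39185184, plus strand): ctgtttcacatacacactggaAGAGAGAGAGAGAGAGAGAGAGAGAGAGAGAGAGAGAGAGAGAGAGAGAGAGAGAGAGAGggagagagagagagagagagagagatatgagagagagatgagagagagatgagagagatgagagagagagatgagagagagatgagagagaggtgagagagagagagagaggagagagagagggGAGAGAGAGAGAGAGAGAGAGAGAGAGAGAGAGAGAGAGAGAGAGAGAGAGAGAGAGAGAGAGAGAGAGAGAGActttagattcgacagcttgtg
chromosome X, intergenic (chrX:121178543-121178669, plus strand): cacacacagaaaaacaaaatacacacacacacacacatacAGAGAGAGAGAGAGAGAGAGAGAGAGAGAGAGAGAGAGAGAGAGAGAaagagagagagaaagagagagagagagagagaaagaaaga
Ttc6 intron (chr12:58796745-58797044, plus strand): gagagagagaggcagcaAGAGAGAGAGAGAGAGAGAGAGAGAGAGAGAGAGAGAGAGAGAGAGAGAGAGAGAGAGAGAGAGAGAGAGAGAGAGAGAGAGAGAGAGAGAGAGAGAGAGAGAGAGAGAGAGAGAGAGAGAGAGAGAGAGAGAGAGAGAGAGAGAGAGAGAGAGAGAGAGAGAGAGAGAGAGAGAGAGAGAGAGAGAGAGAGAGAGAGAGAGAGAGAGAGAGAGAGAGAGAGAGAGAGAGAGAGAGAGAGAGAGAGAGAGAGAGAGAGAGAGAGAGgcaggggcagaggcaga

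The lists held between 78113 and 575674 peaks, and their depth in reads is unknown. The narrowest peak was 240 to 260 bp wide in both wild type lists and premalignant replicate 1, and in premalignant replicate 2 and the malignant lists it was 670 to 800 bp. Below, the former are the narrow lists and the latter the wide lists. The width is a property of the lists and not a group of the study, and wild type and malignant cells cannot be told apart from narrow and wide. At rank 20000 the limit cut through tied scores in premalignant replicate 1, where 40 peaks inside and 340 outside shared the score.

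Of the best 20000 peaks, 52.5% and 55.8% were members for wild type replicates 1 and 2. They made up 45.9% in premalignant replicate 1 and 4.75% in premalignant replicate 2. In malignant replicates 1 and 2 they made up 17.0% and 9.53%. The wild type lists were thus alike, the premalignant replicates lay apart, and the malignant lists lay between them. Among the peaks ranked below the best 20000, an AG array of the same kind was found in 23.2% and 17.0% for wild type cells, 19.1% and 3.31% for premalignant cells and 6.01% and 4.39% for malignant cells, each time replicate 1 first. Of all sequenced positions of mm9, 0.424% have a window that meets the rule.

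In numbers, members were 10500 and 11157 for wild type cells, 9176 and 950 for premalignant cells and 3397 and 1906 for malignant cells. The stage means were 10828.5 ± 465 for wild type, 5063 ± 5817 for premalignant and 2651.5 ± 1054 for malignant cells (SD, n = 2 each). Premalignant minus wild type was -5765.5 (two-sided exact permutation test, p = 0.333), malignant minus premalignant -2411.5 (exact permutation p = 1) and malignant minus wild type -8177 (exact permutation p = 0.333). With 2 lists against 2 the smallest p is 0.333, so no difference between stages could pass a threshold, and the SD of the premalignant stage exceeded its mean. Within the narrow lists premalignant minus wild type was -1652.5, and within the wide lists malignant minus premalignant was 1701.5, opposite in sign to the value over all lists.

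Among peaks with any tandem repeat of at least 40 bp as defined, the AG unit was the longest repeat in 75.7% and 75.4% for wild type cells, 72.3% and 55.2% for premalignant cells and 73.0% and 66.2% for malignant cells. Repeats of every kind together took 69.3%, 74.0% and 63.5% of the best 20000 in the narrow lists and 8.61%, 23.3% and 14.4% in the wide lists. The other common 2-base units, AC and AT, took 1653 and 9 peaks in wild type replicate 1, where AG took 10500. The wide lists therefore held fewer peaks of each of these units, and the AG unit led in all 6.

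AG peaks stood near the top of every list. The first member had rank 6, 8 and 9 in the narrow lists, rank 8 and 75 in malignant replicates 1 and 2 and rank 106 in premalignant replicate 2. In wild type replicate 1 the share of AG peaks was 66.5% among the best 1000 peaks, 45.1% between ranks 10001 and 20000 and 18.1% beyond rank 50000. In malignant replicate 1 the same shares were 45.7%, 12.03% and 5.80%, and in premalignant replicate 2 they were 15.6%, 2.86% and 3.36%. AC arrays ran the other way in the narrow lists, where they took 1.3% of the best 1000 and 11.2% of ranks 10001 to 20000 in wild type replicate 1. Since the score chose the members, these shares by rank are a description.

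**Figure D1:**
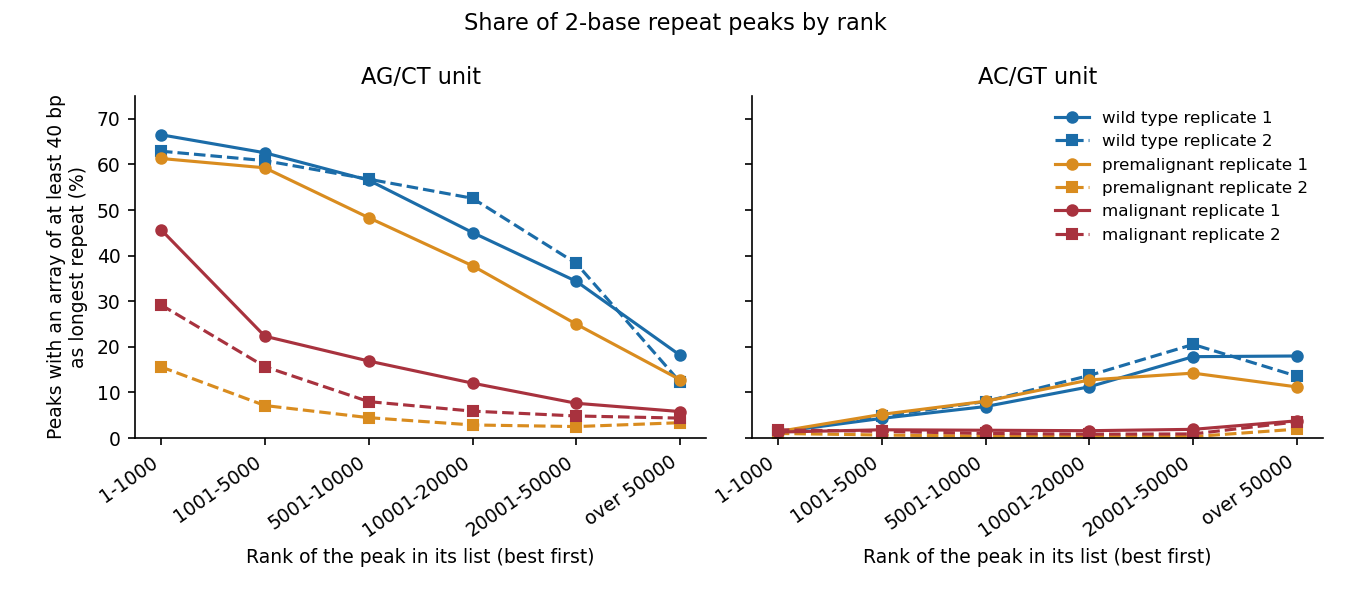
Percent of peaks whose longest repeat is an AG/CT array (left) or an AC/GT array (right) of at least 40 bp, by rank of the peak in its list, with 1 line per list (colour for stage, solid line for replicate 1, dashed for replicate 2). The AG share falls from the best 1000 peaks, at 66.5% in wild type replicate 1 and 15.6% in premalignant replicate 2, towards lower ranks, and the AC share is at most 1.8% among the best 1000.

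The arrays had a median length of 56 bp in each narrow list, and of 53, 54 and 53 bp in premalignant replicate 2 and malignant replicates 1 and 2, against 51 bp over all AG arrays of mm9. Malignant minus wild type was -2.5 bp (exact permutation p = 0.333), premalignant minus wild type -1.5 bp (exact permutation p = 1) and malignant minus premalignant -1.0 bp (exact permutation p = 1). Within the narrow lists the median did not differ, at 0 bp, and within the wide lists malignant minus premalignant was 0.5 bp. The rank followed length only weakly. Members among the best 1000 peaks had medians of 53 to 54 bp in the 6 lists, and those in the last 5000 ranks 57 to 58 bp in the narrow lists and 53 to 55 bp in the wide lists.

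At the limit of length, 396 members of wild type replicate 1 had 40 or 41 bp of array in the window, and 329 peaks just outside had 38 or 39 bp. At the limit of rank, the last member of that list was a 40 bp array in an intron of C130073F10Rik at rank 20000, and the first array beyond it, 51 bp long and 30296 bp from the start of Tmem132b, stood at rank 20003 there and at rank 13601 in wild type replicate 2.

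The share of the genome's AG arrays that were members rose with array length. Of the 29542 AG arrays of 40 to 49 bp in mm9, 8.91% were members in wild type replicate 1 (95% Clopper-Pearson interval 8.59 to 9.24, counting error only, as for all intervals here). Of the 664 arrays of at least 80 bp, 62.8% were (58.999 to 66.5). The same classes gave 9.86% and 69.1% in wild type replicate 2 and 7.84% and 50.2% in premalignant replicate 1. The rise was smaller in the wide lists, at 3.38% and 10.99% in malignant replicate 1, 2.29% and 4.52% in malignant replicate 2, and 1.19% and 2.71% in premalignant replicate 2. Of the 99 arrays of 100 bp or more, 83, 94 and 72 were members in the narrow lists, and 3, 24 and 10 in premalignant replicate 2 and malignant replicates 1 and 2.

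AC arrays, the most like in kind, number 105325 in mm9 at the same minimum of 40 bp. Only 1.56% of them were under a best 20000 summit in wild type replicate 1, where 15.7% of the AG arrays were. In premalignant replicate 2 the shares were 0.0940% for AC and 1.42% for AG, and in malignant replicate 1 they were 0.313% and 5.09%. In both units long arrays were held more often, and the order of the units turned with length. In the class of 40 to 49 bp, 0.567% of AC arrays were held in wild type replicate 1, below the AG share. Among arrays of at least 80 bp, 94.2% of 121 AC arrays were held (interval 88.4 to 97.6), above the AG share.

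**Figure D2:**
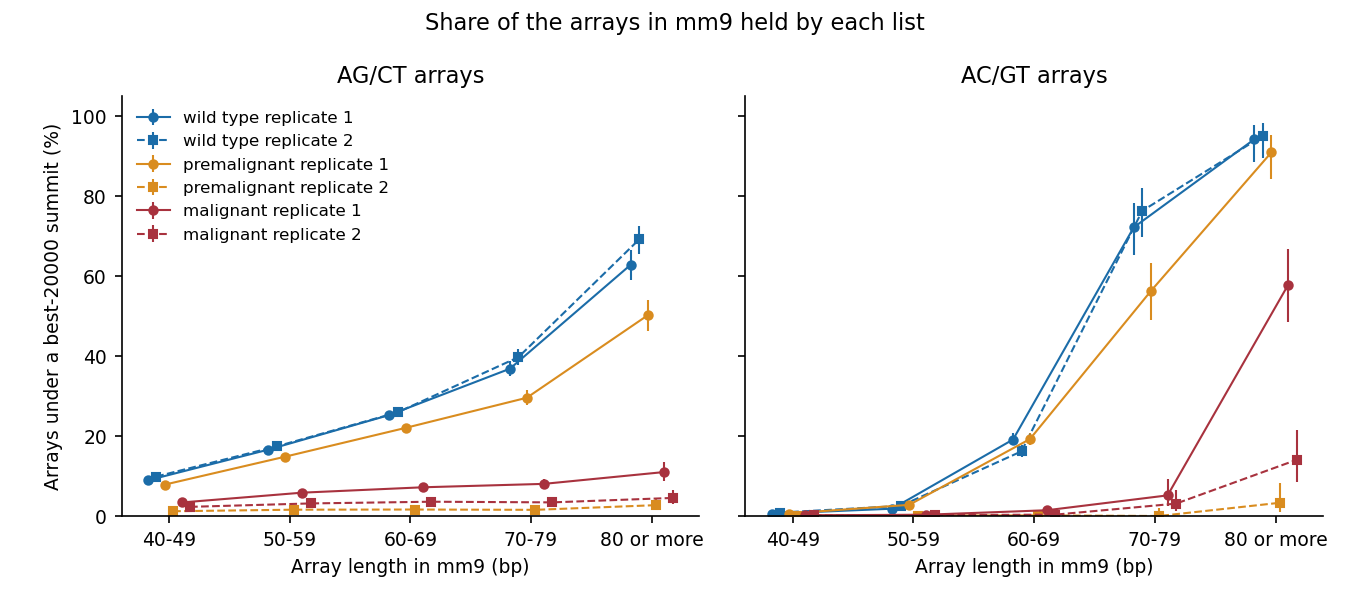
Percent of all AG/CT arrays (left) and AC/GT arrays (right) of mm9 that lie under the summit of a best 20000 peak, by array length in bp, for the 6 lists (colour for stage, solid line for replicate 1, dashed for replicate 2), with bars for 95% Clopper-Pearson intervals. In wild type replicate 1 the AG share rises from 8.91% to 62.8% and the AC share from 0.567% to 94.2%, while in premalignant replicate 2 no class exceeds 3.31%.

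The best ranked members lay more often in a cluster of AG runs. Runs of at least 20 bp on the same strand were counted within 250 bp of the array's centre, a measure that the rule did not use. At least 2 such runs, the array included, were found at 6.01% of the 50815 AG arrays that were members nowhere. Among members the share was 31.5%, 31.3% and 31.9% in the narrow lists, and 57.7%, 47.8% and 49.5% in premalignant replicate 2 and malignant replicates 1 and 2. In wild type replicate 1 it was 71.0% for members among the best 1000 peaks and 18.1% for those between ranks 10001 and 20000. In malignant replicate 1 these values were 71.8% and 34.996%. The share was higher among members than among arrays held nowhere in 6 of 6 lists. The measure was chosen after values of this kind had been seen and no test was made of it.

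**Figure D3:**
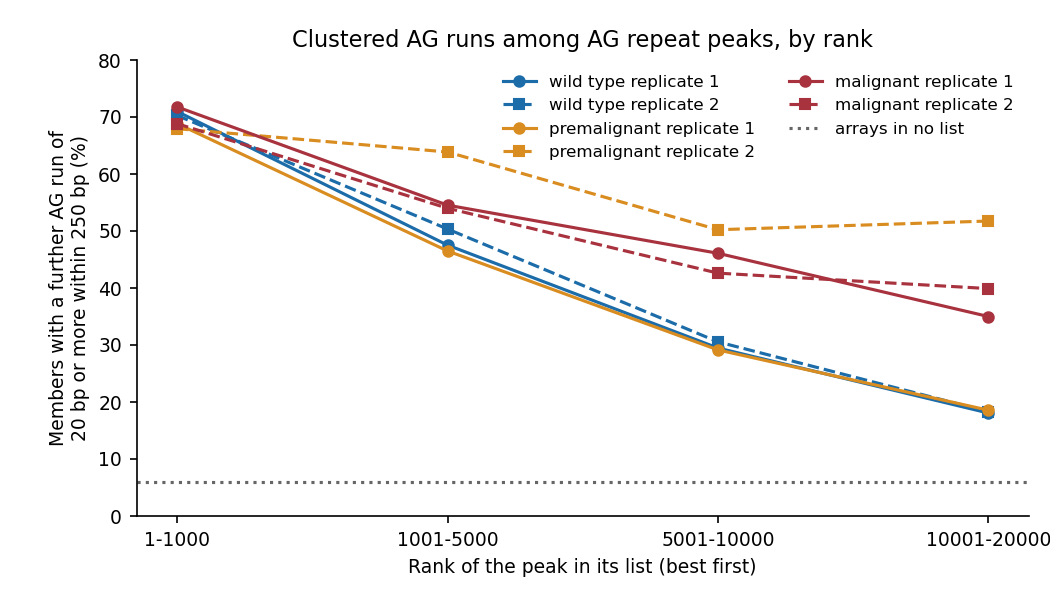
Percent of members with at least 1 further AG run of 20 bp or more on the same strand within 250 bp of the array's centre, by rank of the peak in its list, with 1 line per list (colour for stage, solid line for replicate 1, dashed for replicate 2) and a dotted line for AG arrays in no list. All lists lie between 67.9% and 71.8% among the best 1000 peaks, above the dotted line at 6.01%.

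Counted over the genome, 59518 AG arrays stood alone in that window and 743 had 3 runs. Of the lone arrays 12.1% were members in wild type replicate 1, 0.675% in premalignant replicate 2 and 2.98% in malignant replicate 1. Of the arrays with 3 runs, 53.4%, 14.7% and 37.0% were. The share did not go on rising in every list, since of the 117 arrays with 4 or more runs 41.9%, 17.95% and 35.04% were members, and in wild type replicate 1 arrays with 2 runs had 44.6%. The contrast was also present at equal length. In the class of 50 to 59 bp, 29.1% of arrays held by at least 1 list and 4.47% of those held by none had 2 or more runs. In the class of 70 to 79 bp these shares were 12.7% and 1.67%.

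The neighbouring repeat was mostly of the same unit. Within 60 bp of the array the longest further repeat was an AG run of at least 20 bp at 22.8% of the members of both wild type lists, 23.1% and 41.8% of those of premalignant replicates 1 and 2, and 34.8% and 34.995% of those of malignant replicates 1 and 2. Arrays of no list had such a run in 3.35%. Runs of the AC unit went the other way, at 8.04% to 9.61% of members and 24.9% of arrays of no list. The rule takes part in this, since an array with a longer AC run in the summit window is no member. How much of the difference this makes was not tested. Around member arrays of the narrow lists the stretch of unbroken purines was longer, with medians of 77, 78 and 74 bp, than around arrays of no list, with a median of 58 bp. It was 61, 67 and 63 bp for premalignant replicate 2 and malignant replicates 1 and 2.

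The break between neighbouring runs, as in the Qpct and Faim3 sequences above, could be a lone C. The letters GACAGA were searched on the purine strand only, within the array and 60 bp on either side, and they can share bases with an end of the array. They were present at 17.97% of all AG arrays of mm9 and at 12.9% of those in no list. Among members they were present at 38.98%, 39.3% and 39.3% in the narrow lists and at 58.7%, 51.7% and 54.7% in premalignant replicate 2 and malignant replicates 1 and 2. Among members within the best 1000 peaks the share was 69.2%, 68.2% and 71.0% in the narrow lists and 72.6% and 71.2% in malignant replicates 1 and 2. In premalignant replicate 2 it was 57.1%, below the share among all members of that list. Breaks with other letters were common as well. GAGGGA was present at 44.6%, 46.2% and 43.6% of members in the narrow lists, at 34.1%, 40.8% and 36.5% in the wide lists and at 24.3% of arrays in no list. GAAAGA was present at 43.1%, 42.6% and 41.2% in the narrow lists, at 32.6%, 37.8% and 36.1% in the wide lists and at 31.4% of arrays in no list. In the narrow lists both were thus more frequent over all members than GACAGA, and with rank they went the other way. In wild type replicate 1, GAGGGA was present at 30.4% of members among the best 1000 peaks and at 44.9% of those between ranks 10001 and 20000. GAAAGA was present in wild type replicate 1 at 28.9% of members among the best 1000 peaks and 45.5% of those between ranks 10001 and 20000. These letters describe the sequence, and the search was made after the sequences above had been read.

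In each list more summits of members lay inside the array than outside it. The rule favours this, since it asks for at least 40 bp of array within 100 bp of the summit. The share that the rule alone would give was not computed. The summit was inside the AG array in 81.2%, 80.2% and 79.7% of members in the narrow lists, and in 52.0%, 68.4% and 57.2% in premalignant replicate 2 and malignant replicates 1 and 2. Along the purine strand the median summit lay 5.0, 2.0 and 5.5 bp to the 5′ side of the array's centre in the narrow lists, and 1.25, 5.0 and 0.5 bp to the 5′ side in premalignant replicate 2 and malignant replicates 1 and 2. The mean over the 6 lists was -3.21 ± 2.20 bp (SD, n = 6), with the same sign in 6 of 6 lists (two-sided exact sign-flip permutation test, p = 0.0312, adjusted p = 0.0417 by Benjamini-Hochberg over 4 tests of this kind). The lists hold many of the same arrays, so the 6 values are not independent. In wild type replicate 1 the shift was -4.5 bp where the AG strand is the plus strand and -5.5 bp where it is the minus strand. In premalignant replicate 2 it was -2.0 bp and 1.0 bp, so the sign turned with the strand there, and in malignant replicate 2 it was -1.0 bp and -0.5 bp. Among the best 5000 peaks of each list the mean was -1.83 bp and the adjusted p was 0.333 in the same exact test.

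**Figure D4:**
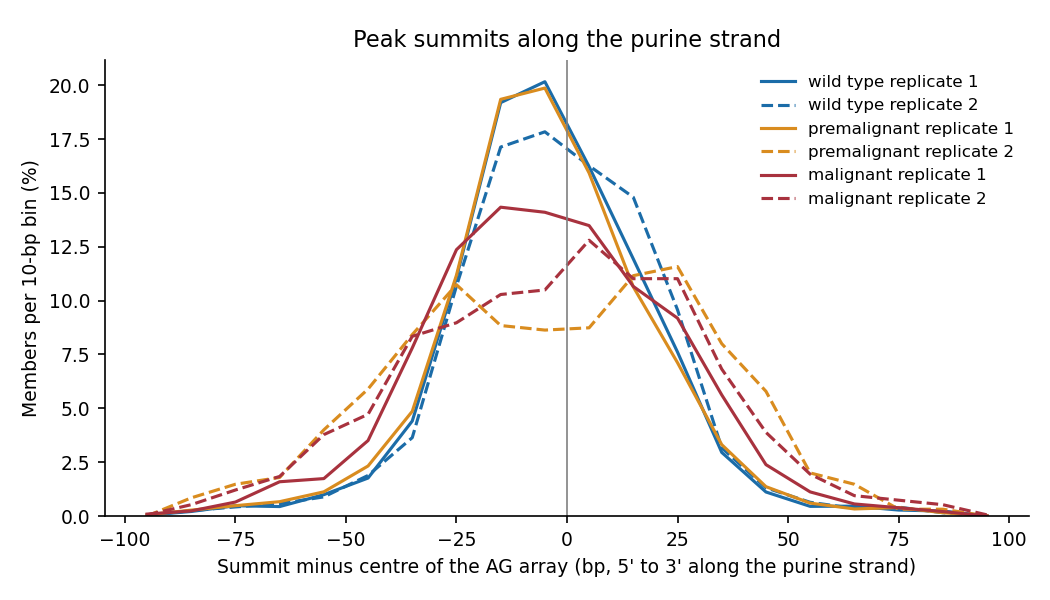
Distribution of the distance from the centre of the AG array to the peak summit in bp, read 5′ to 3′ along the purine strand, as percent of members per 10-bp bin, with 1 line per list (colour for stage, solid line for replicate 1, dashed for replicate 2). The narrow lists peak just left of the centre, with medians of -5.0, -2.0 and -5.5 bp, and the wide lists are broader.

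Members lay in genes and within 5 kb of gene starts slightly less often than AG arrays do as a whole. Genes of GENCODE M1 held 34.6% of all AG arrays, and 33.03%, 33.2%, 32.6%, 34.3%, 32.8% and 32.1% of member arrays in the order of stage and replicate. The mean difference was -1.56 ± 0.748 percentage points (SD, n = 6), lower in 6 of 6 lists (exact sign-flip permutation p = 0.0312, adjusted p = 0.0417). The lists share many arrays, as 91.2% and 92.8% of those of premalignant replicate 2 were members in wild type replicates 1 and 2. The 6 values are therefore not independent, here and in the other tests over the 6 lists. Within 5 kb of a gene start lay 14.3% of all arrays and 13.1% to 13.97% of members, a mean difference of -0.668 ± 0.289 points, lower in 6 of 6 lists (exact sign-flip permutation p = 0.0312, adjusted p = 0.0417). Among arrays of at least 60 bp the difference for genes was 0.181 points, and neither difference passed at the best 5000 peaks. Within 1 kb of a gene start lay 3.70%, 3.50%, 3.64%, 3.47%, 3.86% and 3.31% of members in the same order, and 3.205% of all arrays. That share was higher in 6 of 6 lists and was not tested, so the direction at gene starts turned with the distance.

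Almost every member in a gene was intronic. Exons held between 0.609% and 0.947% of the member arrays of a list, against 0.686% of all arrays, and coding exons held at most 4 arrays in a list. Where an array lay in genes of a single strand, the purines were on the sense strand in 48.6% of all arrays and in 47.1%, 46.9%, 47.9%, 42.6%, 49.2% and 46.5% of members. The mean difference of -1.87 ± 2.22 points was lower in 5 of 6 lists and did not pass (exact sign-flip permutation p = 0.0625, adjusted p = 0.0625). Between stages the share in genes changed by 0.324 points for premalignant minus wild type (exact permutation p = 1), by -1.02 for malignant minus premalignant (exact permutation p = 0.667) and by -0.695 for malignant minus wild type (exact permutation p = 0.333). Within the narrow lists the first was -0.536 points and within the wide lists the second was -1.88 points. On the X chromosome members took 0.880, 0.906 and 0.939 times the autosomal share of arrays in the narrow lists and 0.800, 0.778 and 1.01 times in premalignant replicate 2 and malignant replicates 1 and 2. Mice of the first 2 stages were all female and those with lymphoma of either sex. Which sex a malignant library came from is not given in the sources used here, and its part in these ratios was not tested.

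The array with the lowest mean rank among those held by all 6 lists lay in an intron of Qpct, which encodes glutaminyl cyclase. It is 83 bp long (chr17:79487478-79487560), and its peak ranked 8 and 14 for wild type, 10 and 106 for premalignant and 8 and 75 for malignant cells. The 49 bp array of chromosome 2 (chr2:107966313-107966361), 46138 bp from the nearest annotated gene start, had ranks 9 and 8, 11 and 168, and 31 and 82. Both arrays stood among the best 200 peaks of every list, lowest in premalignant replicate 2. A 78 bp array of chromosome 11 (chr11:92624206-92624283) had ranks 6 and 13, 9 and 151, and 36 and 97.

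Introns held further arrays of this kind. In Sgcz, which encodes a sarcoglycan of the muscle membrane, the 54 bp array (chr8:39238534-39238587) had ranks 20 and 46, 35 and 166, and 59 and 140. The array of Faim3, which encodes the Fc receptor for IgM on B cells, is 58 bp long (chr1:132775478-132775535) and lies 598 bp from the gene's start. Its ranks were 23 and 34, 40 and 220, and 77 and 189.

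Gnb5, a G protein beta subunit gene, carried a 62 bp array 1929 bp from its start (chr9:75161101-75161162) with ranks 78 and 50, 100 and 133, and 89 and 136. Pak3, a p21-activated kinase gene of the X chromosome, carried a 51 bp array 814 bp from its start (chrX:139954030-139954080) with ranks 33 and 55, 47 and 177, and 66 and 211. Of the 12 arrays with the lowest mean rank over all 6 lists, 6 lay in introns and 6 between genes, and the longest further repeat within 60 bp was an AG run in 11, of at least 20 bp in 9. The longest AG array of mm9, 266 bp in an intron of Ttc6 (chr12:58796762-58797027), ranked lower, at 2269 and 2538 in wild type, 5600 in premalignant replicate 1 and 7480 in malignant replicate 1, and was no member in the remaining lists.

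Member arrays were also counted at genes of B cell identity, of the RNA polymerase I machinery, of the Myc network and of p53 signalling. Of 22238 protein-coding genes, 11.8% had an array held by both wild type lists in the gene or within 10 kb, 1.71% one held by both premalignant lists and 2.47% one held by both malignant lists. Of 29 B cell identity genes, 3 had such an array in wild type and 0 in the other stages. Of 19 genes of the RNA polymerase I machinery, 1 had one in wild type and 0 in the other stages. None of 14 genes of the Myc network and none of 16 genes of p53 signalling and apoptosis had one at any stage. With an array of any single list counted, 21.4% of the Myc network genes and 21.1% of all protein-coding genes had one. The share was 17.2% for B cell identity, 15.8% for the RNA polymerase I machinery and 12.5% for p53 signalling and apoptosis. The lists are short, so these counts cannot show a difference from all genes. Some AG array of mm9 is within reach of 24 of the 29 B cell genes (82.8%), against 55.0% of all protein-coding genes. The share is 68.4% for the RNA polymerase I machinery, 57.1% for the Myc network and 31.25% for p53 signalling and apoptosis.

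Single genes of these lists are named for their values. Ikzf1, the lymphoid transcription factor Ikaros, held a 45 bp array (chr11:11645673-11645717) at ranks 1570 and 1627 in wild type, 1257 in premalignant replicate 1 and 2623 in malignant replicate 1. Cd22, an inhibitory coreceptor of the B cell receptor, held a 47 bp array (chr7:31663919-31663965) at ranks 4037 and 3055 in wild type, 2435 in premalignant replicate 1 and 10487 in malignant replicate 1. Ebf1, a transcription factor that specifies B cells, held 5 member arrays, of which a 61 bp array (chr11:44655554-44655614) was held by 4 lists, at ranks 4268 and 7909 in wild type, 4292 in premalignant replicate 1 and 7995 in malignant replicate 2. Near Npm1, the nucleolar protein nucleophosmin, a 53 bp array (chr11:33068434-33068486) had ranks 6966 and 3419 in wild type and 3953 in premalignant replicate 2. All of these were absent from at least 2 lists.

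Between replicates, 76.9% of the members of wild type replicate 1 overlapped a best 20000 peak of replicate 2, where 68.0% of all its best 20000 peaks did. From replicate 2 to replicate 1 the shares were 72.6% of members and 67.8% of all. In premalignant cells 12.2% of the members of replicate 1 overlapped replicate 2, against 20.7% of all, and 95.3% of the members of replicate 2 overlapped replicate 1, also against 20.7%. In malignant cells the shares were 43.7% of members against 41.4% of all from replicate 1, and 75.03% against 39.2% from replicate 2. In each stage the list with fewer members had the larger share of them in the other list.

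Between stages, 83.6% of premalignant members overlapped a best 20000 peak of either wild type list, where 47.1% of all best 20000 premalignant peaks did. These members are 9176 and 950 from replicates 1 and 2, while all peaks are 20000 from each, so the shares mix the lists differently. In replicate 1, 72.2% and 75.9% of members overlapped wild type replicates 1 and 2, against 64.8% and 60.9% of all its best 20000. In replicate 2, 94.8% and 95.8% did, against 18.7% and 13.3%. Of malignant members, 89.3% overlapped a premalignant peak, against 66.1% of all, and 95.6% overlapped a wild type peak, against 36.5% of all. Both wild type lists held 7826 arrays, both premalignant lists 867 and both malignant lists 1349. Of the premalignant ones, 95.3% (interval 93.6 to 96.6) were held by both wild type lists, and of the malignant ones 96.7% (95.6 to 97.6) were. Of the malignant ones, 49.2% (46.5 to 51.9) were held by both premalignant lists, and 96.1% were held by premalignant replicate 1 when replicate 2 was left out. Without malignant replicate 2 that share was 22.9%. Without premalignant replicate 2, 62.3% of premalignant arrays were held by both wild type lists, so both shares rest on which library stands for its stage. In the other direction, with lists of unequal size, premalignant replicate 1 held 60.4% and 60.03% of the members of wild type replicates 1 and 2, and malignant replicate 1 held 28.7% and 27.9%.

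**Figure D5:**
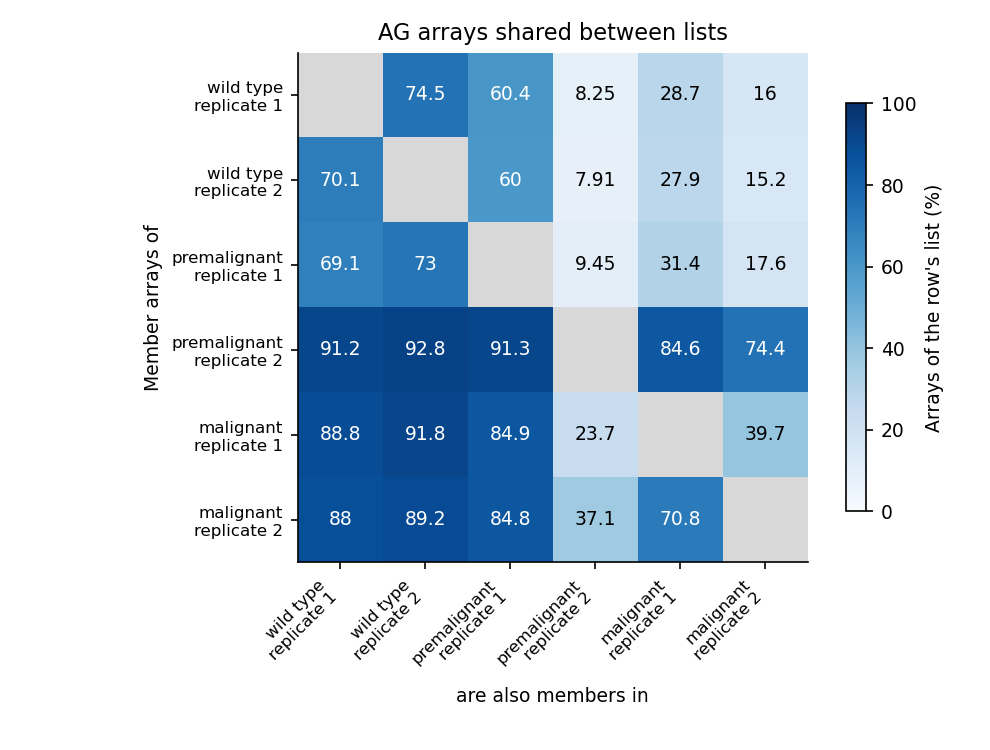
Percent of the member arrays of each list (rows) that are also members in each other list (columns), for the 6 lists by stage and replicate, with darker blue for a larger share. Rows of lists with few members are dark towards the narrow lists, as for premalignant replicate 2 with 91.2%, 92.8% and 91.3%, and the reverse shares are 8.25%, 7.91% and 9.45%.

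Wild type arrays were also looked for in the full lists of the other stages, whether or not they were among the best 20000 there. Of all 7826 arrays held by both wild type lists, 92.2% had a summit within 100 bp in the full list of premalignant replicate 1, 77.4% in premalignant replicate 2, and 87.5% and 86.9% in malignant replicates 1 and 2. Their median rank there was 6988, 146123, 28182 and 90414. These lists hold 78074, 575596, 279021 and 563195 peaks outside rDNA, so the ranks are not on one scale. Over all AG arrays of mm9 the same shares were 34.7%, 35.6%, 32.8% and 46.3%. The full lists covered 4.90% to 20.4% of mm9.

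All 6 lists held 655 arrays, and exactly 1 list held 6261. Arrays held by more lists were shorter and more clustered. From those held by 1 list to those held by 6, the median array length went from 57 to 52 bp, the share with a second AG run within 250 bp from 13.9% to 64.4%, and the share with a second AG repeat within 60 bp from 7.59% to 50.5%. The share of arrays with more than 1 run rose at each step in between, through 23.5%, 32.7%, 42.6% and 49.3%. The median stretch of unbroken purines was 75 bp at 1 list, 83 bp at 3 and 58 bp at 6, the last equal to arrays of no list. An array held by 6 lists must be among the 950 members of premalignant replicate 2. These values thus partly restate those of the lists with few members.

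Held by both lists of 1 stage and by no list of another were 1820 wild type arrays, 12 premalignant arrays and 5 malignant arrays. Both lists held 7826, 867 and 1349 arrays at these stages, and no matching share over all best 20000 peaks was counted. Most of the wild type ones were not absent elsewhere. Some peak of another stage's full list covered 1801 of them, and a best 20000 peak with its summit elsewhere covered 122. Single full lists of premalignant and malignant cells covered 37.1% to 56.9% of all AG arrays of mm9. Their joint share was not counted. Of the 5 malignant ones, 4 lay under a best 20000 peak of another stage. The clearest case is the locus of chromosome 16 printed above, where the wild type lists had their summit on a 74 bp array (chr16:39185090-39185163) at ranks 692 and 810, and the malignant lists on a 60 bp array (chr16:39184906-39184965) at ranks 743 and 1868, with 124 bp between the arrays.

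Another array held only by the malignant lists, 71 bp long and 3343 bp from the start of Igf1, the gene of insulin-like growth factor 1, had ranks 3262 and 10021 (chr10:87317632-87317702). In wild type a 63 bp array of chromosome 10 (chr10:71213634-71213696) had ranks 1847 and 716, and a 46 bp array in an intron of Negr1, a neuronal adhesion molecule gene (chr3:156784183-156784228), had ranks 1594 and 1018. These sets are defined by a limit of rank, and no test was made of them.

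Of the 12 premalignant arrays, 8 lay in 1 stretch of 0.763 Mb of the X chromosome (chrX:120426905-121189607) near Vmn2r121, a vomeronasal receptor gene. The best of them by mean rank, a 47 bp array 70913 bp from that gene's start (chrX:121178583-121178629), had ranks 8310 and 1435. The stretch holds 25 AG arrays in all. Premalignant replicates 1 and 2 held 10 and 11 of them, malignant replicate 1 held 1, and the remaining lists held 0. Full wild type lists had 28 and 43 peaks in the stretch, premalignant lists 30 and 603, and malignant lists 79 and 189, and no peak of a wild type or malignant list covered any of the 8. Sequence around these arrays has further copies in mm9. In the window of that 47 bp array the median 32-base word occurred 12 times in mm9, and in the windows of the next arrays by mean rank it occurred 9 and 9.5 times.

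The sequence around the summits of members was also examined for words that are unique in mm9. Words of 32 bases were counted on both strands of mm9. In the median member window 52.4%, 51.2% and 51.8% of words occurred once in the narrow lists, and 35.3%, 44.1% and 38.8% in premalignant replicate 2 and malignant replicates 1 and 2. Under the best 20000 peaks without a 2-base AG or AC array the median was 34.1%, 45.9% and 26.5% in the narrow lists and 0% in each wide list, and thus below the members in 6 of 6 lists. Under peaks with an AC array it was 51.2%, 45.3% and 54.7% in the narrow lists, above the members in premalignant replicate 1, and 13.5%, 33.5% and 19.4% in the wide lists. Windows with no unique word were 2.08% to 2.10% of members in the narrow lists and 2.94% to 4.62% in the wide lists. The longest array was of the other kind, with a median word that occurred 759653 times. Whether the number of copies bears on the scores was not tested.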

How the data were processed

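UBTF ChIP-seq peak lists of 6 libraries from mouse pre-B cells were analysed, 2 for each of 3 stages. Paired reads had been aligned by the authors to mm9 plus 1 rDNA copy (bowtie2), cleared of duplicates (Picard, 1.110 in the submitters' processing notes) and passed to SPP, library by library, for peak calling. The score by which members were ranked was given by the authors' peak caller and is not scaled between libraries. For every peak the deposited q-value column gives an FDR, the expected share of false peaks, on a linear scale. Starts, ends and summit offsets were used as deposited. Lists give no read counts, so depth is unknown, and several summits can share 1 region.

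The members and gene lists were chosen with earlier results of these data known. Sequence came from NCBIM37, of the same build, and genes from GENCODE M1. Every perfect 2-base array of mm9 was listed. Array ends are those of the whole array, and an array counted as a member where it lay under the summit window of a best 20000 peak as its longest repeat. Stages were compared with two-sided exact permutation tests, and values over the 6 lists with two-sided exact sign-flip permutation tests, Benjamini-Hochberg adjusted over 4. P-values measure the spread between these libraries only, and the 6 lists are not independent, since they hold many of the same arrays. Arrays named are the 12 lowest by mean rank in all 6 lists, the 3 lowest held by 1 stage only, the 3 longest, those at the limit, and those near listed genes. Some arrays that this rule names are not reported here. Python 3.11.15, numpy 2.4.6, scipy 1.17.1, pandas 2.3.3, numba 0.67.0 and matplotlib 3.10.9 were used, and repeat finding was tested on simulated data. Alternatives were other numbers of peaks, array lengths, windows, interruptions, FDR limits, left-out libraries, the replicate block and other definitions of sharing.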

Additional observations from a re-analysis of the deposited data

How the results depend on the processing

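Peak lists limit every stage difference to 2 values against 2, and depth is unknown. Differences in number kept their sign under all alternatives except 1. Leaving out each library in turn gave -6524.5 (without premalignant replicate 2) to 1701.5 (without replicate 1) for malignant minus premalignant, and premalignant minus wild type ranged from -9878.5 to -1652.5. The same settings gave -2.5 to 0.5 bp for median length, malignant minus premalignant, and -3.0 to 0.0 bp for premalignant minus wild type. The share in genes, premalignant minus wild type, ranged from -0.536 to 1.18 points, was -0.271 with the best 50000 peaks and -0.795 with arrays of at least 60 bp. With the best 5000 peaks its malignant minus wild type value was 0.724 and the median length, malignant minus premalignant, 0.0 bp. Malignant minus premalignant was 0.427 points with arrays of at least 60 bp.

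Tests over libraries lose their call with any library left out, since 5 libraries cannot give an exact permutation p below 0.0625. The values ranged from -3.75 to -2.75 bp for the summit offset, from -1.82 to -1.38 points for genes and from -0.734 to -0.563 points for gene starts. With the best 5000 peaks they were -1.83 bp, -0.842 and -1.13 points, and with arrays of at least 60 bp -5.71 bp, 0.181 and -0.524 points, none of which passed. The sense strand value turned to 0.976 points with arrays of at least 60 bp. The cause of these changes was not tested.

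Shares moved beyond their intervals as follows. Premalignant arrays in wild type were 96.9% with the best 5000 peaks, 97.1% with windows of 200 bases on each side, 97.5% where any overlapping best 20000 peak counted and 79.6% where 1 list of a stage sufficed. Malignant arrays in premalignant were 46.2% with the best 5000 peaks, 44.8% with arrays of at least 60 bp and 82.0% where 1 list sufficed. Malignant arrays in wild type were 98.1%, 98.9%, 99.3% and 91.4% with arrays of at least 60 bp, windows of 200 bases, any overlapping peak and 1 list. Leaving out a library gave 62.3% (without premalignant replicate 2) to 97.5%, 22.9% (without malignant replicate 2) to 96.1% (without premalignant replicate 2) and 85.4% (without malignant replicate 1) to 98.4%. With the q-value column read as a linear FDR, limits of 0.01 left the members as they were, and counting each array once changed no number.

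The replicate block gave the same differences in number, -5765.5, -2411.5 and -8177, with exact permutation p-values that cannot fall below 0.5, and changed no call. Whether same-numbered libraries shared more than a number cannot be decided here. The correlation of their deviations from the stage means over 15987 arrays was 0.000011 for wild type with premalignant and -0.0038 for wild type with malignant. For premalignant with malignant it was 0.126. With 2 libraries per stage, both deviations of a stage are the same replicate difference with opposite signs, and the lists differ in size.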
